A study of Homo sapiens with 4 samples.

Results

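Weak open regions of wild-type (WT) HEK293T cells are here the ATAC-seq peaks chosen by their measured fold enrichment, under 3, and their measured width, under 700 bp, on the autosomes other than chromosome 19. Of the 50883 peaks in the WT list, 5361 (10.5%) met this rule, which is 11.4% of the 46875 peaks on the same 21 chromosomes. HEK293T is an aneuploid human embryonic kidney line that carries the SV40 large T antigen. The peaks came from 2 WT libraries of unedited cells, which were merged into 1 list with no values for either library, so no peak value has a replicate error and nothing was tested. The series also holds 2 libraries of MORC2 knock-out (KO) pools, each made with its own guide RNA; a KO peak list was not analysed here, and the promoter counts could not be placed among the peaks because no annotation of the CHM13 assembly was used. The promoter counts of WT replicates 1 and 2 totalled 10072386 and 9435801.

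In ATAC-seq the Tn5 transposase cuts DNA that is free of nucleosomes and inserts sequencing adapters there, so that fragments pile up at active promoters, enhancers and sites bound by factors such as CTCF. Peak height in a population of cells is a relative measure and does not give the share of cells in which a site is open. A weak peak marks a shallow rise over its surroundings, which can come from a site open in few cells, a shoulder of a nearby open region or a chance rise in the count. Fold enrichment, the height of the pileup at the summit over the local background, cannot separate these. The sequences of the peaks are not shown here.

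Because the rule used fold enrichment and width, both are given as descriptions. The weak peaks had a median fold enrichment of 2.74 (quartiles 2.53 and 2.88) and a lowest value of 1.54. Their median width was 267 bp (quartiles 219 and 352), and 611 of them (11.4%) were 200 bp wide or less, near the shortest width in the class of 189 bp. Together they covered 1.63 Mb, or 4.82% of the 33.8 Mb under peaks on these chromosomes. For comparison, 19516 narrow peaks with a fold enrichment from 3 to under 8, called intermediate peaks here, had a median width of 356 bp, and 3.62% of them were 200 bp wide or less.

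**Figure D1:**
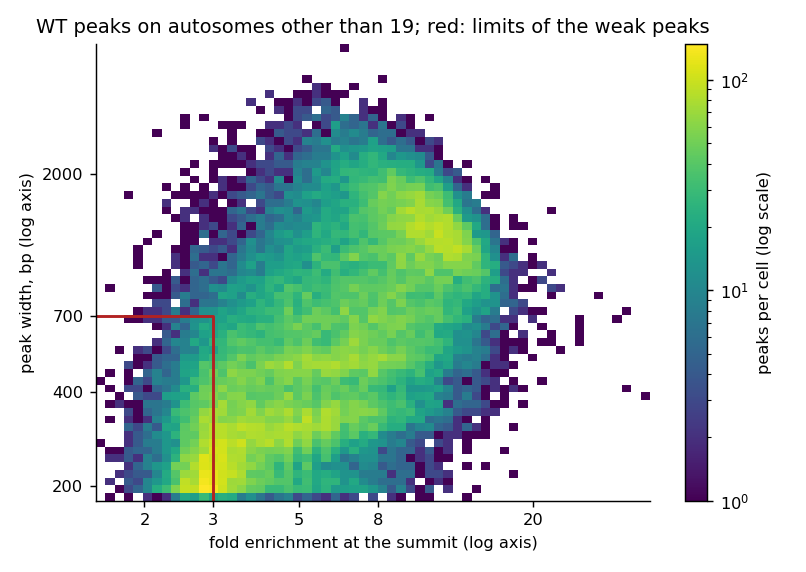
Fold enrichment at the summit (x, log axis) against width in bp (y, log axis) for the 46875 WT peaks on autosomes other than 19; the colour gives the number of peaks per cell of the grid on a log scale, and the red lines mark the limits of 3 and 700 bp. The 5361 weak peaks fill the lower left corner, and the densest cells lie along the fold limit at small widths, so the limit runs through a crowded part of the list.

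The fold limit did not fall in a gap between kinds of peak. The members nearest to it were at chr15:64570027-64570498 and chr2:241690167-241690386, both with a fold enrichment of 2.99966, and at chr13:51210509-51210896 with 2.9995. Just outside lay narrow peaks at chr5:138715383-138715606 (3.00077), chr4:56144709-56145327 (3.00087) and chr5:151048151-151048531 (3.00172). At the width limit, the widest members were at chr14:18377920-18378618 and chr9:144964077-144964775, both 699 bp, and at chr4:763486-764183, which was 698 bp. The narrowest peaks kept out by width alone were at chr14:99043391-99044090 (700 bp), chr16:2172038-2172738 (701 bp) and chr1:223030252-223030953 (702 bp). All positions are on CHM13 with no strand, counted from 1.

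The number of fragments behind each peak could be recovered. The peak caller computes fold enrichment as the summit pileup plus 1 over the local background plus 1, and its p-value from a Poisson distribution with that background as its mean. Solving both deposited columns together gave a pileup within 0.1 of a whole number for 5361 of 5361 weak peaks and for 50880 of the 50883 peaks in the list. The largest gap to a whole number among weak peaks was 0.00094 fragments. The weak peaks held a median of 18 fragments at the summit (quartiles 14 and 26, range 12 to 193) over a median local background of 5.94 fragments (quartiles 4.20 and 9.45). Intermediate peaks held a median of 29 fragments over a background of 4.77, and both differences follow from the rule, since fold enrichment is made from these 2 values.

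The local background had a floor of 4.03 fragments, the value the caller takes for the whole genome when the surroundings of a peak are no denser than that. At the floor were 1133 weak peaks (21.1%), and these could take only 3 values. A pileup of 12 fragments gave a fold enrichment of 2.59 in 113 peaks, 13 fragments gave 2.79 in 468 peaks, and 14 fragments gave 2.98 in 552 peaks. With 1 more fragment, at 15, the fold enrichment was 3.18, and the 585 narrow peaks there were no longer weak. In regions of floor background the fold limit is therefore a limit between 14 and 15 fragments.

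Counting error was larger than that step. The exact 95% Poisson interval of 14 fragments runs from 7.65 to 23.5, which corresponds to a fold enrichment from 1.72 to 4.87. Over all weak peaks, the interval reached 3 or more in 5026 (93.8%) and stayed under 3 in 335 (6.25%). Conversely, 8940 of the 19516 intermediate peaks (45.8%) had an interval that reached under 3. These intervals cover counting error only. They do not allow for the summit being the highest point of a region that the caller kept, which favours high counts. The 335 peaks that stayed under 3 had a median pileup of 50 over a median background of 24.1, and a median fold enrichment of 2.04. Their high pileups follow from the width of the interval. At the floor even the lowest pileup, 12, had an interval up to a fold enrichment of 4.37, so no peak there could stay under 3.

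A low fold enrichment thus arose at very different depths. Above the floor but under 2 times it lay 2551 weak peaks (47.6%), with a median pileup of 17. At 2 to under 5 times the floor lay 1277 (23.8%), with a median pileup of 30. The remaining 400 (7.46%) had a background of 5 times the floor or more, up to 93.3 fragments, and a median pileup of 65. That pileup was above the 90th percentile of intermediate peaks, 60 fragments, and the median fold enrichment was the lowest of these groups, 2.24. The caller keeps peaks with a q under 0.05, which lets lower fold enrichments pass at higher backgrounds. The lowest kept was 2.59 at the floor, then 2.15, 1.80 and 1.54 as the background rose. The order of the medians follows at least in part from that limit. The 3 lowest fold enrichments of all were of this kind. They lay at chr5:178760049-178760327 (1.54, 64 fragments over 41.1), chr7:5641929-5642353 (1.57, 62 over 39.2) and chr21:35750327-35750516 (1.62, 66 over 40.4).

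**Figure D2:**
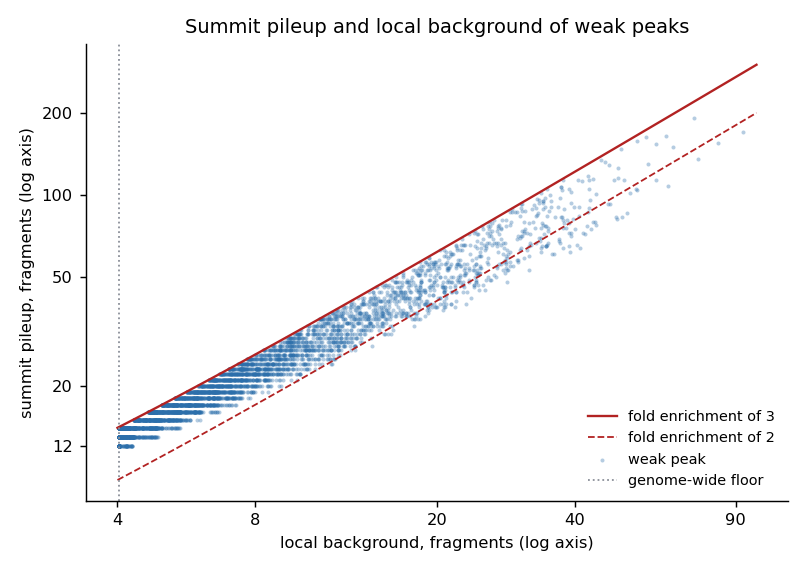
Summit pileup in fragments (y, log axis) against local background in fragments (x, log axis) for the 5361 weak peaks, one point per peak; the red lines mark fold enrichments of 3 (solid) and 2 (dashed), and the dotted line marks the floor of 4.03 fragments. At the left the points form rows at 12, 13, 14 and more fragments, and the cloud widens below the line of 3 as the background rises.

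The q-values were modest and stepped in the same way. The median −log10 q was 2.63 (quartiles 2.12 and 3.5, range 1.31 to 28.5), where the caller keeps peaks with a q under 0.05. That median is also the commonest single value, shared by 564 weak peaks (10.5%), since 14 fragments over the floor always gave 2.63. Pileups of 13 and 12 over the floor gave 2.08 and 1.57. Intermediate peaks had a median of 10.6, and 82.4% of them reached a −log10 q of 5, against 601 weak peaks (11.2%). Fold and q come from the same pileup, so this difference follows in part from the rule.

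Among the weak peaks, −log10 q was higher where the background was higher. This follows at least in part from the rule, which held fold enrichment in a narrow band. At a given fold enrichment, a higher background comes with a higher pileup and so with a higher −log10 q. Spearman's rho across the 5361 peaks was 0.65 between local background and −log10 q and 0.17 between fold enrichment and −log10 q, as a description of peaks that share the same pair of libraries. The 2 values cannot be ranked against each other, because the rule cut the range of fold enrichment and left that of the background free. The 699 peaks with a −log10 q under 2 had a median background of 4.84 fragments, and the 120 with 10 or more had 30.7. The highest −log10 q, 28.5, belonged to chr2:232194533-232195088, with 193 fragments over a background of 73.1 and a fold enrichment of only 2.62. Next came chr1:145077208-145077691 (27.8, 164 fragments) and chr6:115038901-115039564 (27.6, 159 fragments). By the caller's Poisson model, these regions stood more firmly above their surroundings than most weak peaks, although their fold enrichment was under 3. That model was not checked at such high backgrounds.

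The weak peaks also differed in shape from the intermediate ones. The summit lay in the middle of the peak, from 0.25 to 0.75 of its width, in 43.5% of weak peaks, 66.4% of intermediate peaks and 83.6% of narrow peaks with a fold enrichment of 8 or more. Another peak lay within 1000 bp of 991 weak peaks (18.5%), compared with 5.89% of intermediate peaks. For 392 of the 991 (39.6%) that neighbour was a broad peak of 700 bp or more with a fold enrichment of at least 3. For 275 (27.7%) it was an intermediate peak, and for another 275 (27.7%) a weak peak. Among the 1150 intermediate peaks with such a neighbour, it was a broad peak of that kind in 28.1%. It was an intermediate peak in 44.2% and a weak peak in 24.6%. Weak peaks made up 27.7% and 24.6% of these neighbours, compared with 11.4% of the 46875 peaks on the same chromosomes. Intermediate peaks, 27.7% and 44.2% of the neighbours, numbered 19516 of the 46875. The share of broad peaks of that kind in the whole list was not computed, so 39.6% cannot be read as an excess. The rule did not use the summit position or the neighbours themselves. Through the rule, however, the classes also differed in width and pileup. Summit positions were not compared at equal width or pileup. A neighbour can raise the local background, taken by default from 10 kb around the peak, and so lower the fold enrichment. Its part in the difference between the classes was not tested.

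To ask how weak peaks lie relative to well-formed open sites, the distance was measured from the edge of each to the nearest peak of any width with a fold enrichment of 8 or more, called strong. There were 14491 strong peaks on these chromosomes. The median distance was 35.2 kb for weak peaks (quartiles 13.9 and 82.2) and 44.6 kb for intermediate peaks (quartiles 18.1 and 105). Weak peaks had the shorter median on 20 of the 21 chromosomes. The exception was chromosome 13, where it was 112 kb for weak and 78.0 kb for intermediate peaks. Within its run from 60 to 85 Mb, described below, the medians were 175 kb for weak and 169 kb for intermediate peaks. On the rest of chromosome 13 they were 54.0 and 55.5 kb, so the classes differed little in either part. Among the other 20, the difference was largest on chromosome 2, with medians of 24.8 and 47.3 kb, and smallest on chromosome 11, with 32.1 and 33.8 kb.

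The excess was clearest close to strong peaks. Within 1 kb of one lay 132 weak peaks (2.46%) and 115 intermediate peaks (0.589%), and within 5 kb lay 7.26% and 4.11%. The 132 nearest had a median background of 18.6 fragments, a median pileup of 44 and a median −log10 q of 4.37. Beyond 300 kb lay 279 weak peaks, with a median background of 4.29 fragments, a median pileup of 14 and a median −log10 q of 2.58. By default the caller takes its background from a window of 10 kb around the peak, and the part of this window in the distances was not tested. Among peaks at the floor, whose surroundings were no denser than the genome-wide value, 7.15% of weak and 5.49% of intermediate peaks lay within 10 kb of a strong peak, and 64.1% and 59.6% within 100 kb. Within 5 kb lay 0.353% and 0.368%, and few peaks so close to a strong one can be at the floor. The median distances at the floor were 66.0 and 72.2 kb. Above the floor but under 2 times it, the medians were 33.5 kb for weak and 40.5 kb for intermediate peaks. At 2 to under 5 times the floor they were 24.4 and 25.4 kb. At 5 times the floor or more, the medians were 19.3 kb for weak and 18.2 kb for intermediate peaks, so that the order of the classes turned in that group.

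The extremes show both kinds of surroundings. The weak peaks closest to a strong peak were at chr17:50056728-50057134, 192 bp away with 54 fragments over a background of 27.1, and at chr17:20990885-20991185, 194 bp away with 84 over 32.9. Peaks at chr15:39137650-39137885 and on chromosome 8 tied at 195 bp. The farthest was chr21:5612661-5613003, at 2.49 Mb, with 35 fragments over a background of 14.1 and another peak 1068 bp away. The next were chr14:36732452-36732805 (2.26 Mb) and chr2:50606903-50607121 (2.13 Mb), which held 14 and 13 fragments at floor background.

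**Figure D3:**
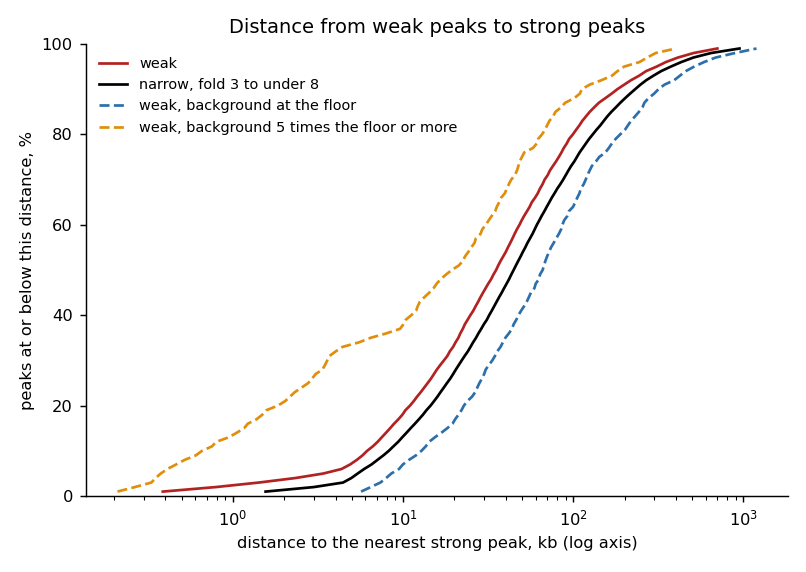
Percentage of peaks (y) at or below a given distance to the nearest strong peak in kb (x, log axis), drawn from the 1st to the 99th percentile. The curve of weak peaks (red) lies left of that of intermediate peaks (black), with medians of 35.2 and 44.6 kb; weak peaks at floor background (blue, dashed) lie right of both at 66.0 kb, and those with 5 times the floor or more (orange, dashed) start at the shortest distances, with a median of 19.3 kb.

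Chromosome 1 held the most weak peaks, 705, or 13.2% of them, against 11.2% of all other peaks, a ratio of 1.18. Chromosome 9 held 359, or 6.70%, against 4.83%, a ratio of 1.39. Together they carried 1064 weak peaks (19.8%) and 16% of the others. Neither ratio was the highest. On chromosome 21 it was 2.18, with 159 weak peaks among 724, and on chromosome 13 it was 1.63, with 269 among 1548. Chromosome 15 had the lowest, 0.61, with 103 among 1405. The excess of chromosome 1 was not seen among weak peaks with a −log10 q of at least 5, where its ratio was 0.933.

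Per 100 peaks of any kind, weak peaks numbered 13.2 on chromosome 1 (95% Wilson interval 12.3 to 14.1) and 15.2 on chromosome 9 (13.8 to 16.7), compared with 11.4 over all 21 chromosomes. On chromosomes 13 and 21 they numbered 17.4 (15.6 to 19.3) and 22.0 (19.1 to 25.1), and on chromosome 15 they numbered 7.33 (6.08 to 8.81). The intervals treat peaks as independent and say nothing of the spread between libraries. Chromosomes rich in weak peaks tended to be poor in strong ones. Strong peaks made up 23.8% of peaks on both chromosomes 13 and 21, 27.6% on chromosome 9 and 35.4% on chromosome 15. On chromosome 1 they made up 31.0%, and over all 21 chromosomes there were 14491 among 46875 peaks. Across the 21 chromosomes Pearson's r was −0.88 and Spearman's rho −0.88, as a description, since both percentages share a denominator.

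**Figure D4:**
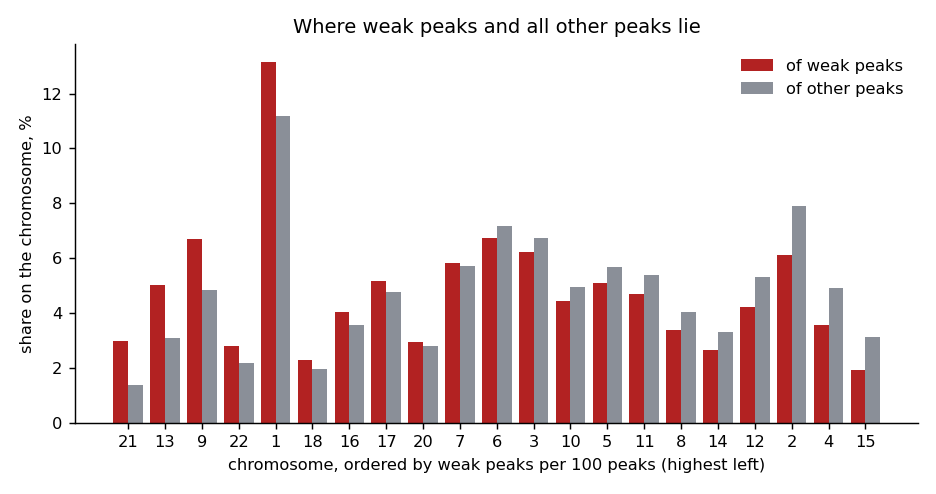
Share in percent (y) of the 5361 weak peaks (red bars) and of all other peaks (grey bars) that lies on each of 21 chromosomes (x), ordered from the most weak peaks per 100 peaks at the left. Chromosome 1 has the tallest bars at 13.2% and 11.2%, and the gap between bars is widest in proportion on chromosome 21, at 2.97% and 1.36%.

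Within chromosomes the weak peaks were unevenly spread. In 410 bins of 5 Mb with at least 50 peaks, weak peaks made up a median of 10.0% of peaks (quartiles 6.96 and 13.8, range 1.10 to 44.2). They exceeded 20% in 25 bins on 12 chromosomes, of which 4 lay on chromosome 1, 3 on chromosome 9 and 4 on chromosome 13. The highest 2 bins were adjacent, on chromosome 13 from 60 to 65 Mb and from 65 to 70 Mb, with 61 weak peaks of 138 (44.2%) and 53 of 132 (40.2%). The next 2 bins, to 75 and 80 Mb, had 23.7% and 23.8%. The regions described here were chosen after these shares were seen.

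The run on chromosome 13 from 60 to 85 Mb held 178 of its 269 weak peaks (66.2%). Weak peaks were 33.0% of the peaks inside it and 9.02% of those on the rest of the chromosome, below the 11.4% of all chromosomes. Strong peaks were 7.61% inside and 32.5% outside. The weak peaks inside had a median background of 5.23 fragments and were at the floor in 19.7% of cases, against 4.31 fragments and 41.8% outside. The intermediate peaks shared this: 24.1% of them were at the floor inside and 47.5% outside. Over the run as a whole, background was higher for both classes although strong peaks were scarce, unlike the rise near strong peaks described above. Its last bin, 80 to 85 Mb, went the other way. There 9.09% of 33 peaks were strong and 69.7% were at the floor. Whether DNA copy number differs in the run was not tested.

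On chromosome 9, weak peaks were 9.55% of peaks below 45 Mb and 16.9% from 75 Mb on, where 307 of the 359 lay. From 135 to 150 Mb, toward the end of the long arm, lay 140 of them (39.0%), at 19.4% of peaks and a median background of 9.52 fragments, against 13.3% and 5.19 on the rest of the chromosome. Intermediate peaks shared the higher background, with medians of 9.92 fragments inside and 4.73 outside. Another region lay from 90 to 95 Mb, with 25 weak peaks of 86 (29.1%), 8 strong peaks and a median background of 6.72. Weak peaks on the rest of the chromosome had a median background of 6.41. Intermediate peaks had 4.73 inside this region and 5.26 outside it.

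On chromosome 1, the weak peaks were spread over both arms, with 14.1% of peaks up to 125 Mb and 11.99% from 140 Mb on. The fullest bin was 30 to 35 Mb, with 52 weak peaks of 204 (25.5%) and a median background of 9.29 fragments, compared with 10.4 for the intermediate peaks there. From 60 to 80 Mb there were 102 of 476 (21.4%), with a median background of 4.89 fragments, and 5.12 for the intermediate peaks, so that weak peaks were frequent there over a low background. On chromosome 21, 71 of the 159 weak peaks lay from 40 to 45 Mb, at 31.0% of the peaks and a median background of 9.86 fragments, compared with 10.6 for the intermediate peaks there.

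**Figure D5:**
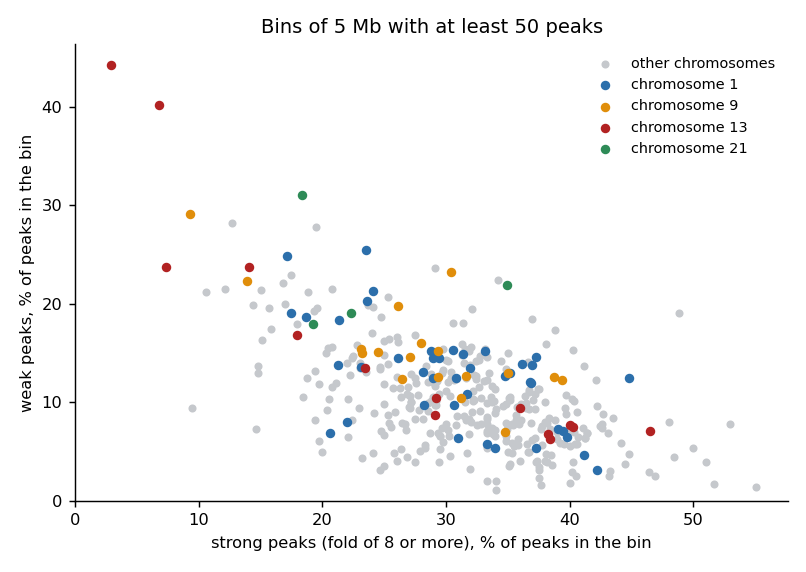
Weak peaks as a percentage of all peaks (y) against strong peaks as a percentage of all peaks (x) in 410 bins of 5 Mb, one point per bin, coloured for chromosomes 1, 9, 13 and 21. The 2 red points at the upper left are the chromosome 13 bins with 44.2% and 40.2% weak peaks and 2.90% and 6.82% strong peaks; bins of chromosomes 1 and 9 mostly lie within the cloud of the other chromosomes.

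At a finer scale the weak peaks were counted in windows of 100 kb. Of 4015 windows that held a weak peak, 3063 held exactly 1, and 57.1% of the weak peaks were alone in this way. Their density was 1.90 per Mb over all chromosomes together. The share alone was not compared with an even scatter at that density or with intermediate peaks. Whether weak peaks stand apart or cluster at this scale was therefore not tested. At most 7 fell in 1 window, and this occurred in 5 windows, 3 of them in the chromosome 13 run and 1 each on chromosomes 4 and 5. The window chr4:1000001-1100000 held 10 peaks in all, 7 weak and none strong, with backgrounds from 4.03 to 26.6 fragments. It contained chr4:1041757-1041986 (−log10 q 10.2, 63 fragments) and chr4:1043551-1044176 (9.50, 56 fragments), and the window on chromosome 5 contained chr5:180166402-180166715 (7.17, 56 fragments). In the window chr13:66200001-66300000, 7 of 13 peaks were weak, none was strong, and the weak ones held 20 to 39 fragments over backgrounds of 7.44 to 14.2.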

How the data were processed

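ATAC-seq was run on 2 WT and 2 MORC2 KO libraries of HEK293T cells. The authors trimmed the paired-end reads, aligned them with bowtie2 to T2T-CHM13, kept properly paired reads of high mapping quality, removed duplicates with Picard and called peaks with MACS in paired-end mode at default options. The deposited WT peak list covers both WT libraries together. Its fold enrichment is a ratio made by the authors' caller, and its −log10 p and −log10 q are deposited values at the summit. The deposited score equalled 10 times the −log10 q, truncated, for 99.9% of peaks and was not used further. The deposited promoter counts are raw fragment counts per promoter and served only to give depth.

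Peaks were selected, placed in classes and measured with Python 3.11.15, pandas 2.3.3 and SciPy 1.17.1. Pileup and background were solved from fold and p with a pseudocount of 1, and the solver was tested on simulated data. Its formula was kept because at least 90% of pileups came out whole. Background was called at the floor within 0.001 fragments. Poisson intervals are exact, intervals of shares are Wilson intervals, and both are at 95%. Distances run from edge to edge. Peaks named with positions were the 3 at each extreme of q, fold, both limits and distance, and 3 from the fullest windows, with ties kept for the shortest distance. Members, classes and lists were chosen with earlier results of these data known. Alternatives covered both limits, q, chromosomes, the meaning of strong, the distance measure and the formula of the caller.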

Additional observations from a re-analysis of the deposited data

How the results depend on the processing

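Without a value for either WT library, a library could not be left out, and the limits of these results are those of 1 merged list at 1 depth. No paired analysis was possible because both WT libraries share 1 peak list and no test was run. Promoters overlapped by weak peaks were not compared between KO and WT, which needs an annotation of CHM13. The alternatives that left out chromosomes, and all those for the difference of distances between classes, were chosen after seeing the data.

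With a fold limit of 2.5 there were 1174 weak peaks, with a median −log10 q of 2.66, a median distance to a strong peak of 26.9 kb, and 14.4% and 7.75% of them on chromosomes 1 and 9. With a limit of 3.5 there were 8943, with 3.21, 37.2 kb and 5.96% on chromosome 9. The ratio of shares on chromosome 9 was then 1.56 and 1.24. A −log10 q of at least 5 left 601, with a median of 6.82, a distance of 19.8 kb and shares of 10.6% and 7.49%, and the ratio on chromosome 1 turned from 1.18 to 0.933. The cause of this turn was not tested. Weak peaks at the floor had a fold enrichment of at least 2.59, so the limit of 2.5 left out all of them. The highest −log10 q at a background under 2 times the floor was 4.84, so the q limit left out all weak peaks there. The median distances of those groups were 66.0 kb at the floor and 33.5 kb above it but under 2 times it. Without a width limit the median −log10 q was 2.64. With X and chromosome 19 added, 12.2% of weak peaks lay on chromosome 1. Per Mb, the ratio on chromosome 1 was 1.49. With strong meaning a fold of 6 or 10 the distance was 19.4 or 76.6 kb, as the number of strong peaks itself changes. The difference of 9.41 kb between the median distances of intermediate and weak peaks was 6.22 kb at floor background and 14.7 kb with strong meaning a fold of 10, and from 8.70 to 10.2 kb with each chromosome left out. Without the pseudocount 11.4% of pileups came out whole, and with the tail at or above the pileup 40.4%, against 100% as computed here. The other 35 alternative values kept their direction and moved less than the limits set for them.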

Other observations

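Narrow peaks of low fold enrichment outside the chosen chromosomes were about as frequent. Chromosome 19 had 247 among 2209 peaks (11.2%), and X had 180 among 1794 (10.0%), compared with 11.4% on the autosomes described above. All 5 mitochondrial peaks had a fold enrichment under 3. A further 264 peaks on the same autosomes had a fold enrichment under 3 and a width of 700 bp or more. They held a median of 51 fragments over a background of 19.2, and had a median −log10 q of 6.94, higher than that of the weak narrow peaks. The median gap to their nearest peak of any kind was 1742.5 bp, compared with 6995 bp for the weak narrow peaks.

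Chromosome 18 had a run of bins, from 25 to 40 Mb, with 77 of its 123 weak peaks (62.6%). Weak peaks were 23.8% of peaks there and 7.44% on the rest of the chromosome, and strong peaks were 16.4% and 32.5%. The share of intermediate peaks at the floor was 11.6% inside and 51.8% outside. The weak peaks themselves had a median background of 5.61 fragments inside and 5.58 outside. This run was chosen after its values were seen.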
